A study of Homo sapiens with 8 samples.

Results

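The miRNAs described here are both arms of miR-146a, miR-146b and miR-155, the miRNAs most often linked to NF-kB. The rule that picks them uses their names and no measured value, although it was written with earlier results of these data known. They are 6 of the 3112 miRNAs in the count table, of which 1482 are known and 1630 are predicted by the authors. The samples were 786O cells, a human cell line derived from clear cell renal carcinoma (ccRCC). From 4 samples that received a control plasmid, the negative control (NC), and from 4 that received circSOD2-sh, a short hairpin RNA against the circular RNA circSOD2, small RNA was sequenced. By the sample labels the plasmids were transfected by lipofection and RNA was taken 48 h later, whereas the methods of the paper describe lentiviral knockdown with puromycin selection. All 8 samples share the line and its serum-containing medium. The comparison asks which miRNAs changed when circSOD2 was knocked down. Which of the 2 designed circSOD2 hairpins was used is not given in the sources used here, and circSOD2 itself is not measured by small RNA sequencing. No label says that the replicates came from separate cultures, so p-values measure the spread between these samples, which may be technical.

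NF-kB is a family of transcription factors that inflammatory receptors release from their inhibitors, and many of its target genes feed back on the pathway. MIR146A is such a target: its guide strand, miR-146a-5p, represses the adaptors TRAF6 and IRAK1 and so dampens the signal, and miR-146b-5p shares its seed from a separate locus. MIR155 is processed from the host transcript MIR155HG (BIC), is induced by the same receptors, and its guide strand represses brakes of the response such as SOCS1 and INPP5D. In each hairpin the 5p strand is the guide and the 3p strand is the passenger that is mostly degraded.

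The 6 mature sequences are shown because the seed, bases 2 to 8 and here in capitals, sets which messages an miRNA can pair with, and because the 5p arms of miR-146a and miR-146b are so alike that read counting must tell them apart. They are from RefSeq on GRCh38.p14, 5′ to 3′.
hsa-miR-146a-5p: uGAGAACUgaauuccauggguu
hsa-miR-146b-5p: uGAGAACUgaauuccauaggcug
hsa-miR-146a-3p: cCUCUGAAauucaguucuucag
hsa-miR-146b-3p: gCCCUGUGgacucaguucuggu
hsa-miR-155-5p: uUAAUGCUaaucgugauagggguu
hsa-miR-155-3p: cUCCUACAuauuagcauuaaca
The 5p arms of miR-146a and miR-146b were identical at 20 of the 22 positions compared, and differed by G18A and U21C, counted from the 5′ end with the base of miR-146a first. miR-146b-5p is also 1 base longer. Their 3p arms were identical at 6 of 22 positions and have different seeds. No other known miRNA of the table with a RefSeq sequence, 1298 in all, has the seed of any of the 6.

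The hairpin of miR-146a lies at chr5:160485352-160485450 on the plus strand of GRCh38, inside exon 2 of the long noncoding RNA MIR3142HG in GENCODE release 29. The hairpin of miR-146b, at chr10:102436512-102436584 on the plus strand, overlaps no other annotated gene. The hairpin of miR-155, at chr21:25573980-25574044 on the plus strand, lies in exon 4 of MIR155HG, the last exon of that transcript. miR-3142, which shares the host of miR-146a, was not analysed here.

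Promoters were read as the 300 bases from 250 before to 50 after a gene's RefSeq start, and the 10-letter NF-kB consensus motif was sought on both strands. The promoter of MIR3142HG held 1 match, from 120 to 111 bases before the start. It is shown with its neighbouring bases at chr5:160468121-160468150 on the plus strand, the match in capitals.
MIR3142HG promoter: ggatctagaaGGGACTTTCCagagagggtt
The same window of MIR155HG held no match, and 11.3% of the 35116 promoters of the reference held at least 1. A match is a match of letters only, and no binding was measured in these samples.

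The libraries differed in composition before any miRNA is compared. Counts per library ranged from 6386872 to 9245044 for NC and from 3743860 to 4208276 for circSOD2-sh, but predicted miRNAs took 58.1% to 63.8% of the NC counts against 3.54% to 4.93% of the circSOD2-sh counts. A single predicted miRNA, numbered 455, took 54.3% to 59.1% of each NC library and 0.0628% to 0.105% of each circSOD2-sh library, so a share of all counts and a share of known miRNAs differ in what they show. Counts were therefore scaled with the trimmed mean of M-values (TMM). Levels are given as normalized CPM, the count divided by the TMM-scaled library size. TMM assumes that most miRNAs do not differ between the groups, whereas 65.7% of those tested were called here. The point of no change is therefore uncertain on this scaling too. NC replicate 4 and circSOD2-sh replicate 2 stood apart in miRNAs that mark other cells, with a summed level of 557.4 and 227.8 normalized CPM for the stroma and smooth muscle markers against at most 13.4 in the other 6 libraries, and circSOD2-sh replicate 2 alone held 4069 normalized CPM of the neural markers against at most 37.1 elsewhere. For the leukocyte markers, 4 miRNAs, the sums were 17.1 in NC replicate 4 (1.19 to 2.0 in the rest of NC) and 14.7 in circSOD2-sh replicate 2 (2.13 to 3.21 in the rest of circSOD2-sh). None of the 4 leukocyte markers was at 0 in every library, but miR-142-3p had at most 3 counts and miR-223-3p at most 2. miR-142-5p reached 71 counts and miR-150-5p 36, so these sums rest on few markers.

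All 5 of the arms that could be tested were present in every library, and their mean levels ran from 61442 down to 2.49 normalized CPM in one fixed order. miR-146a-5p was highest, followed by miR-146b-5p, miR-146a-3p, miR-155-5p, miR-146b-3p and miR-155-3p, and this order held in 8 of 8 libraries with no overlap between neighbours. Levels of different miRNAs are compared per read and not per length, since a read covers the whole mature strand, and the efficiency with which each sequence enters a library was not measured. Of the 5 arms tested, 2 were lower in circSOD2-sh at an adjusted p under 0.05 in edgeR's quasi-likelihood test with Benjamini-Hochberg adjustment over all 895 miRNAs tested, and 0 were higher. Those 2 were miR-146a-5p and miR-155-5p. Over all miRNAs tested 32.4% were called lower and 33.3% higher, and over the 463 known miRNAs tested 28.5% were lower and 27.0% higher (65.7% and 55.5% in either direction), so a call was common in this comparison. Both lower calls hold for TMM scaling. With library totals miR-146a-5p was higher by 0.65 and miR-155-5p by 0.45 on the log2 scale. A lower level in bulk RNA can also come from fewer cells of a kind or from less RNA per cell, and these cannot be told apart here.

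hsa-miR-146a-5p was among the most abundant miRNAs of these cells. Its normalized CPM was 59075, 61946, 64633 and 60114 in NC replicates 1 to 4. It was 45004, 50826, 52868 and 49155 in circSOD2-sh replicates 1 to 4. Every circSOD2-sh library was below every NC library, so the groups did not overlap, which held for 60.3% of all miRNAs tested. The mean went from 61442 ± 2436 (SD, n = 4) to 49463 ± 3338 (SD, n = 4), which is 0.805 times the NC level with a 95% interval of 0.726 to 0.893. The log2 fold change was -0.31 (SE 0.067, adjusted p = 0.00224 in edgeR). This was a moderate change for these libraries, since 169 of the 463 known miRNAs tested had a lower fold change. Leaving out circSOD2-sh replicate 3 made the log2 fold change -0.50, and leaving out both libraries that stood apart made it -0.44 (adjusted p = 0.000171 in edgeR). The median of all miRNAs tested moved too, from -0.0021 to -0.10 without circSOD2-sh replicate 3 and -0.13 without both. Relative to that median miR-146a-5p was at -0.31 with all libraries, -0.40 without circSOD2-sh replicate 3 and -0.31 without both.

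The place of miR-146a-5p among known miRNAs shifted as well. It had rank 2 by count among known miRNAs in every NC library, behind miR-21-5p, an miRNA abundant in many tumours. It took 11.4% ± 0.11 (SD, n = 4) of the known counts in NC. In circSOD2-sh it took 7.19% ± 0.169 (SD, n = 4), and the groups did not overlap. It had rank 3 in circSOD2-sh replicates 1 and 4 and rank 4 in replicates 2 and 3, where miR-30a-5p also exceeded it. miR-100-5p passed it in all 4 circSOD2-sh libraries, going from 18691 ± 527 to 129380 ± 7296 normalized CPM (SD, n = 4 each, log2 fold change 2.79, adjusted p = 4.5e-10 in edgeR). A share of known counts falls for every other miRNA when one of that size rises, and how much of the fall in the share of miR-146a-5p this accounts for was not tested.

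hsa-miR-146a-3p, the passenger strand of the same hairpin, was far less abundant and showed no change past the threshold. Its normalized CPM was 41.6, 42.3, 43.0 and 47.2 in NC. It was 37.1, 45.7, 40.9 and 35.6 in circSOD2-sh. The groups overlapped through circSOD2-sh replicate 2, and the 95% interval of the fold, 0.759 to 1.1, includes both no change and the fold seen for the guide strand. The log2 fold change was -0.13 (SE 0.12, adjusted p = 0.370 in edgeR). Without circSOD2-sh replicate 2 the test passed, with an adjusted p of 0.0408 in edgeR.

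hsa-miR-146b-5p, which has the same seed as miR-146a-5p, showed no change past the threshold. Its normalized CPM was 611, 646, 679 and 642 in NC. It was 601, 768, 733 and 651 in circSOD2-sh. The highest values were in circSOD2-sh replicates 2 and 3 and the lowest in circSOD2-sh replicate 1, so the groups overlapped. The log2 fold change was 0.09 (SE 0.093, adjusted p = 0.388 in edgeR), and the 95% interval of the fold, 0.924 to 1.23, lies above the interval of miR-146a-5p. The sign of this small difference was not stable, as it was negative without circSOD2-sh replicate 2 or 3. In those fits the median of all miRNAs tested was -0.145 and -0.103, and relative to it miR-146b-5p was at 0.074 and 0.012. Relative to the median it was at 0.097 with all libraries and at -0.019 without NC replicate 4. Among known miRNAs its rank was 61 to 63 in the NC libraries and 61 to 66 in the circSOD2-sh libraries. By mean level over the 8 libraries it stood between miR-374a-5p and miR-425-5p, of which the first was lower in circSOD2-sh by -0.41 and the second higher by 1.00 on the log2 scale (adjusted p = 0.00224 and 3.37e-06 in edgeR).

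hsa-miR-146b-3p was near the limit of detection. Its counts were 25, 17, 23 and 16 in NC. They were 10, 12, 19 and 13 in circSOD2-sh, of which the highest, in replicate 3, was above 2 of the NC counts. A count of 10 has a 95% exact Poisson interval of 4.80 to 18.4 and a count of 25 one of 16.2 to 36.9, for counting error only. The log2 fold change was -0.50 (SE 0.27, adjusted p = 0.133 in edgeR) with a 95% interval of the fold from 0.463 to 1.08. Leaving out circSOD2-sh replicate 3 gave a log2 fold change of -0.91 (adjusted p = 0.00999 in edgeR), beside a median of -0.10 for all miRNAs tested.

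hsa-miR-155-5p was a rare miRNA in these cells, with rank 232 to 267 among known miRNAs in the NC libraries, and was lower in circSOD2-sh. Its counts were 102, 103, 88 and 54 in NC. They were 52, 60, 46 and 69 in circSOD2-sh. On normalized CPM these are 15.6, 15.9, 15.01 and 12.1 in NC and 8.84, 10.6, 9.23 and 12.3 in circSOD2-sh. The groups overlapped only through NC replicate 4 and circSOD2-sh replicate 4. The mean went from 14.7 ± 1.72 (SD, n = 4) to 10.2 ± 1.55 (SD, n = 4), 0.697 times the NC level with a 95% interval of 0.538 to 0.903. The log2 fold change was -0.52 (SE 0.17, adjusted p = 0.0197 in edgeR), and 99 of the 463 known miRNAs tested had a lower one. The call was lost without a filter on low counts (log2 fold change -0.55, adjusted p = 0.0769 in edgeR). The lowest NC level was in NC replicate 4, the NC library with the highest sum of the 4 leukocyte markers. Of these, miR-142-3p and miR-223-3p had at most 3 and 2 counts in any library. Whether leukocyte RNA contributed to miR-155-5p was not tested. Without NC replicate 4 and circSOD2-sh replicate 2 the log2 fold change was -0.72 (adjusted p = 0.00598 in edgeR), beside a median of -0.13 for all miRNAs tested.

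hsa-miR-155-3p had 1 count in all 8 libraries together, in circSOD2-sh replicate 1, and was not tested. It had 0 counts in all 4 NC libraries. A count of 0 allows up to 3 counts, which is 0.46 to 0.674 normalized CPM for the NC libraries and 0.51 to 0.602 for the circSOD2-sh libraries, so no difference was detectable at this depth.

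**Figure D1:**
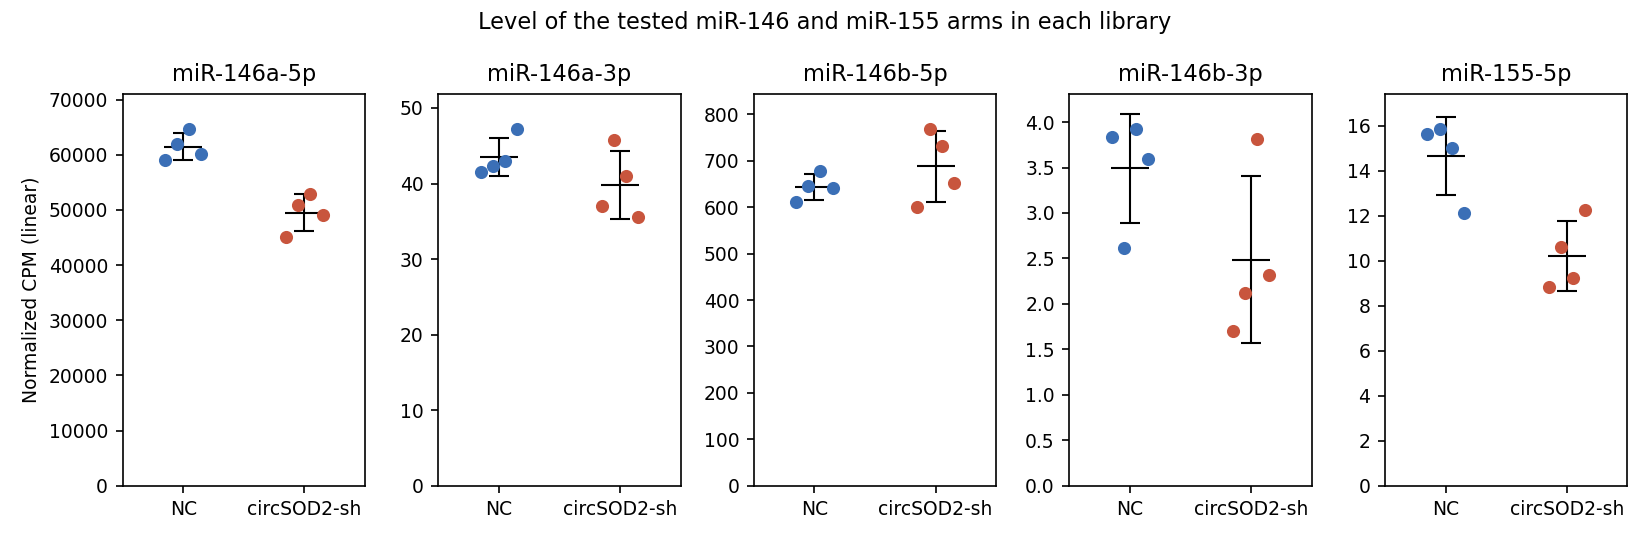
Normalized CPM (linear vertical axis from 0, its own scale in each panel) of the 5 tested arms in the 4 NC (blue) and 4 circSOD2-sh (red) libraries. Points are libraries from replicate 1 to 4 left to right, the long bars are means and the error bars SD. miR-146a-5p shows no overlap between groups, miR-155-5p overlaps through 1 library of each group, and the other 3 arms overlap.

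The direction of these values depends on how the libraries are scaled. On TMM scaling the median log2 fold change of all miRNAs tested was -0.0021, with 298 called higher and 290 called lower. TMM places the centre of the fold changes near 0 by design, so this median is not a finding. With library totals and no further factor the median of all tested was 0.96, the calls split into 613 higher and 158 lower, and miR-146a-5p was higher by 0.65 and miR-155-5p by 0.45. With upper quartile factors the median was 0.83, and these arms were at 0.53 and 0.31. The deposited CPM of miR-146a-5p went from 41141 ± 2400 to 58526 ± 2071 (SD, n = 4 each), 1.42 times the NC value, while its share of known counts was 0.633 times the NC share. Relative to the median of all miRNAs tested, miR-146a-5p was at -0.31 and miR-155-5p at -0.52 on either scaling, and miR-146b-5p was at 0.10. With only known miRNAs in the table these became -0.18, -0.39 and 0.22, and with miRNAs of a mean of at least 50 counts -0.08, -0.29 and 0.33. The order of the 3 guide strands, with miR-146b-5p highest and miR-155-5p lowest, was the same under each of these settings. A change of library factors moves the log2 fold change of every miRNA by about the same amount. Neither that order nor the distance from the median could therefore test the scaling.

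**Figure D2:**
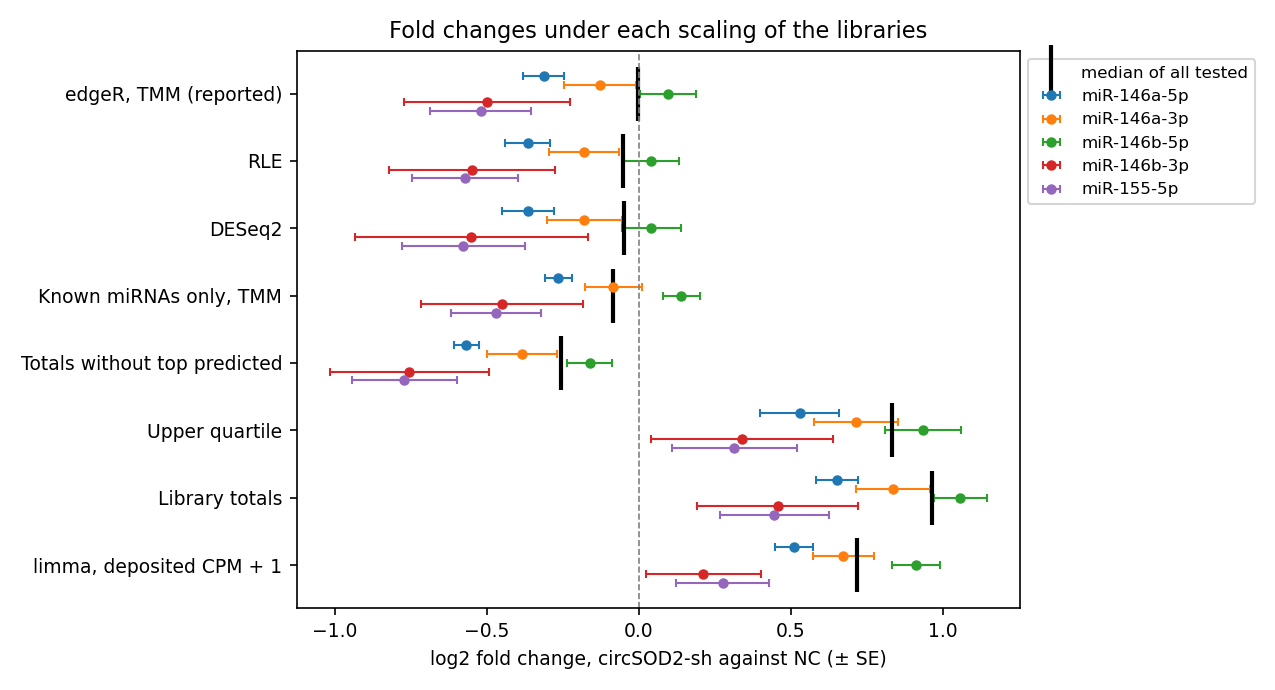
Log2 fold change of circSOD2-sh against NC (horizontal axis, error bars are SE) of the 5 tested arms under 8 scalings or tests, with the median of all miRNAs tested as a black bar. With library totals, upper quartile scaling and deposited CPM the whole set lies above 0, with the median at 0.96, 0.83 and 0.72, and in the other settings that median lies between -0.255 and -0.0021.

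Ratios between members within a library do not depend on that scaling. For every 1000 reads of miR-146a-5p there were 10.3, 10.4, 10.5 and 10.7 reads of miR-146b-5p in NC. There were 13.4, 15.1, 13.9 and 13.3 in circSOD2-sh, all above the NC values, and the groups did not overlap. The ratio was 1.32 times higher in circSOD2-sh, a log2 difference of 0.40. An exact permutation test, two-sided, gave p = 0.0286, the smallest possible with 4 against 4 libraries, which did not pass 0.05 (0.0571) after Benjamini-Hochberg adjustment over the 2 ratios tested. A gain on miR-146a-5p was common, since 34.0% of the 462 other known miRNAs tested had a ratio to it that was higher in circSOD2-sh with no overlap, and 45.0% one that did not overlap in either direction. As these 5p arms differ at few bases, the ratio may carry reads assigned to the wrong one, and how the counting treated such reads is not given in the sources used here.

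Together the 5p arms of miR-146a and miR-146b, which offer one seed, went from a sum of 62087 ± 2463 to 50152 ± 3405 normalized CPM (SD, n = 4 each). miR-146b-5p made up 1.02% to 1.06% of that sum in the NC libraries and 1.31% to 1.49% in the circSOD2-sh libraries, so nearly all of it was miR-146a-5p in both groups.

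For every 1000 reads of miR-146a-5p there were 0.265, 0.256, 0.232 and 0.202 reads of miR-155-5p in NC. There were 0.196, 0.208, 0.175 and 0.250 in circSOD2-sh, and the groups overlapped. The log2 difference was -0.20 (exact permutation test, two-sided, p = 0.2, also 0.2 after adjustment over the 2 ratios), so the fall of miR-155-5p was not shown to differ from that of miR-146a-5p.

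Strand use of each hairpin was read as the log2 ratio of 5p to 3p counts within a library, with 0.5 counts added to each arm. The guide of miR-146a outnumbered its passenger by 1421, 1463, 1504 and 1274 to 1 in NC. In circSOD2-sh the ratios were 1215, 1111, 1292 and 1382 to 1, all 4 below NC replicates 1 to 3 but replicates 3 and 4 above NC replicate 4, so the groups overlapped. The log2 ratio went from 10.5 ± 0.105 to 10.3 ± 0.133 (SD, n = 4 each), a difference of -0.18 (SE 0.117, 95% interval -0.45 to 0.09, adjusted p = 0.219 in limma over 117 hairpins).

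The guide of miR-146b outnumbered its passenger by 159, 247, 173 and 179 to 1 in NC. In circSOD2-sh the ratios were 354, 363, 192 and 282 to 1, and circSOD2-sh replicate 3 lay within the NC range. The log2 ratio went from 7.51 ± 0.272 to 8.12 ± 0.411 (SD, n = 4 each), a difference of 0.61 (SE 0.23, 95% interval 0.082 to 1.14, adjusted p = 0.0483 in limma). This call rested on 10 to 25 passenger counts per library and on single libraries. It was lost on leaving out any of NC replicates 1, 3 and 4 or circSOD2-sh replicates 1, 2 and 4, with log2 differences from 0.50 to 0.62 and adjusted p from 0.085 to 0.12 in limma. Over all hairpins with both arms tested 59.0% were called, 36 with a gain of the 5p arm and 33 with a gain of the 3p arm, so a call was again common (30.8% with a gain of the 5p arm). miR-155 was not tested, with 347 guide and 0 passenger counts over the NC libraries and 227 and 1 over the circSOD2-sh libraries.

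**Figure D3:**
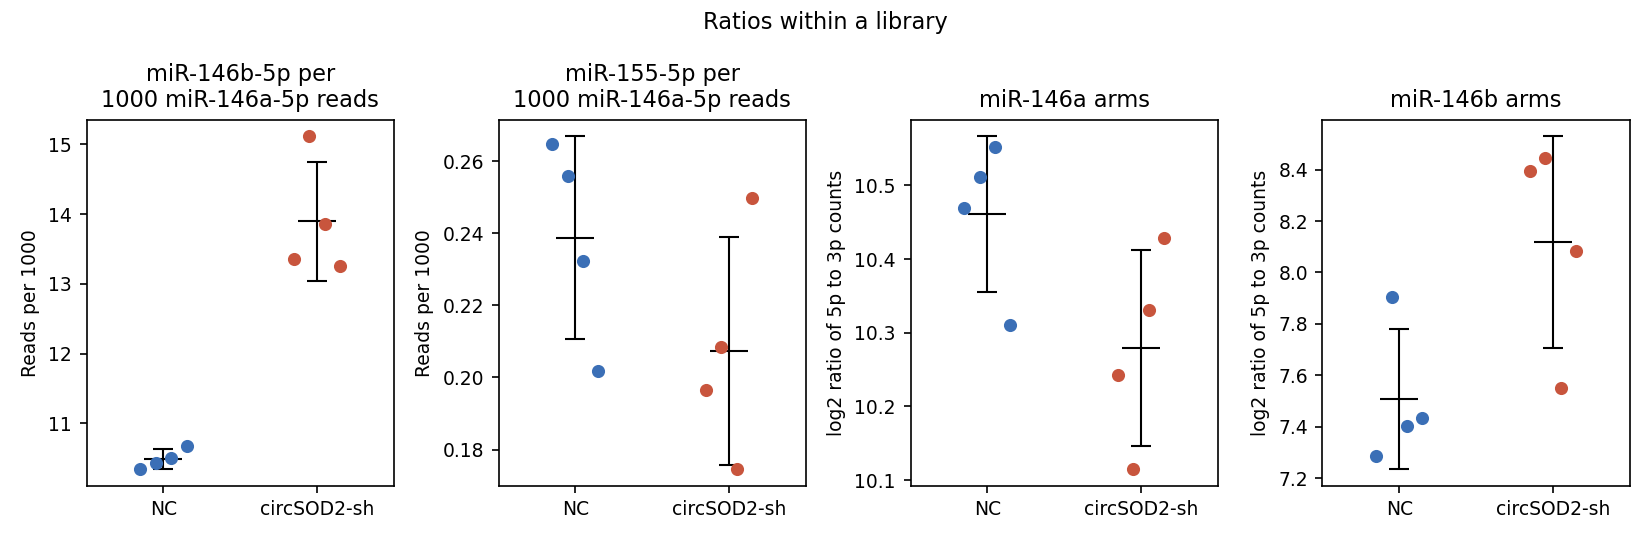
Within-library ratios in the NC (blue) and circSOD2-sh (red) libraries, with means as long bars and SD as error bars, n = 4 each; the vertical axes do not start at 0. The left panels give reads per 1000 reads of miR-146a-5p, and the right panels the log2 ratio of 5p to 3p counts of a hairpin. The ratio of miR-146b-5p to miR-146a-5p shows no overlap (10.3 to 10.7 against 13.3 to 15.1), and the groups overlap in the other panels.

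The miRNA whose levels over the 8 libraries were most like those of miR-146a-5p was miR-151a-3p, by the root mean square difference of centred log2 normalized CPM. That difference was 0.0457, against a median of 0.314 over the 368 known miRNAs with at least 10 counts in each library. let-7f-2-3p (0.0533) and miR-200b-3p (0.0557), a member of the epithelial miR-200 family, came next, with log2 fold changes of -0.29 and -0.25. The other members were further away: miR-146a-3p ranked 50, miR-155-5p 101 and miR-146b-5p 107. For miR-155-5p the most alike were miR-579-3p (0.121), miR-301b-3p (0.128) and miR-30b-3p (0.133), against a median of 0.377, and miR-146a-5p ranked 32. These are descriptions over 8 libraries that share the group difference and the scaling.

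A list of 18 other miRNAs linked to NF-kB gives the setting of these arms. Of the 17 tested, 2 were higher in circSOD2-sh, 9 were lower and 6 were not called, and their median log2 fold change was -0.39 beside -0.0021 for all miRNAs tested and -0.11 for the known ones. Of all miRNAs tested 33.3% were called higher and 32.4% lower, and of the known ones 27.0% and 28.5%. Without the 2 libraries that stood apart the counts were 3 higher and 11 lower, with a median of -0.49 beside -0.13. Of all 945 miRNAs tested in that fit, 309 were called higher and 350 lower. With library totals the list had 14 higher and 1 lower, with a median of 0.57 beside 0.96 for all tested, of which 613 of 895 were called higher and 158 lower.

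Among the 8 miRNAs reported to be induced by NF-kB, 2 were higher and 3 were lower, beside 33.3% and 32.4% of all miRNAs tested. With library totals or upper quartile factors 6 of the 8 were higher and 1 was lower, so the directions below hold for TMM scaling. Of all 895 tested, 613 were higher and 158 lower with library totals, and 570 and 160 with upper quartile factors. The largest rise was that of miR-125b-5p, which targets many transcripts of cell survival, with 11.2, 9.85, 10.9 and 100.9 normalized CPM across the NC libraries, of which replicate 4 stood apart, and 11511, 13878, 12868 and 12656 across the circSOD2-sh libraries (log2 fold change 8.60, SE 0.95, adjusted p = 2.27e-05 in edgeR). miR-132-3p, known from the CREB response of neurons, had at most 1.23 normalized CPM in each NC library and from 13.04 to 24.4 in each circSOD2-sh library. miR-34a-5p, better known as a target of p53, had 17.8, 14.3, 13.8 and 19.6 normalized CPM in NC. It had 1.70, 5.47, 2.41 and 2.85 in circSOD2-sh, with no overlap between groups (log2 fold change -2.39, SE 0.316, adjusted p = 8.94e-05 in edgeR). miR-222-3p (-0.43) and miR-224-5p (-0.61) were also lower on this scaling. miR-21-5p (-0.03, adjusted p = 0.802 in edgeR) and miR-221-3p (-0.08, adjusted p = 0.332) were not called. Without NC replicate 4 and circSOD2-sh replicate 2, miR-21-5p was lower by -0.25 (adjusted p = 0.0165 in edgeR) and miR-221-3p was at -0.18 (adjusted p = 0.0531). The median of all miRNAs tested was -0.13 in that fit. miR-9-5p (2.84, adjusted p = 0.0507 in edgeR) owed its value to circSOD2-sh replicate 2, with 851.9 normalized CPM against 25.2 to 35.3 in the other 7 libraries.

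Another 10 miRNAs are reported to target parts of the pathway, and they were not divided by whether those parts raise or dampen the signal. Of these 10, 9 were tested, 6 were lower and 0 were higher on TMM scaling, beside 32.4% and 33.3% of all miRNAs tested, with a median log2 fold change of -0.58. miR-16-5p, which shares its seed with miR-15a-5p, fell from 8264 ± 373 to 5513 ± 588 normalized CPM (SD, n = 4 each, log2 fold change -0.58, adjusted p = 0.000157 in edgeR). let-7a-5p fell by 0.62, miR-26b-5p by 0.65, miR-15a-5p by 0.63, miR-181b-5p by 0.39 and miR-182-5p by 0.25 on the log2 scale. miR-301a-3p (-0.20), miR-19a-3p (0.29) and miR-199a-5p (-0.69) were not called, and miR-223-3p had too few counts to be tested. With library totals 8 of these 9 were higher and 0 lower, beside 613 higher and 158 lower of all 895 tested. miR-199a-5p had 133 normalized CPM in NC replicate 4 and from 3.69 to 6.90 in the other NC libraries. Without NC replicate 4 and circSOD2-sh replicate 2 it was higher by 1.25 (adjusted p = 0.0340 in edgeR). Its level was 4.25, 21.5 and 12.3 normalized CPM in circSOD2-sh replicates 1, 3 and 4, of which replicate 1 lay within that NC range. Without the same libraries miR-301a-3p was lower by -0.49 (adjusted p = 0.0172 in edgeR), and miR-19a-3p was at -0.08 (adjusted p = 0.744). The median of all miRNAs tested was -0.13 in that fit.

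**Figure D4:**
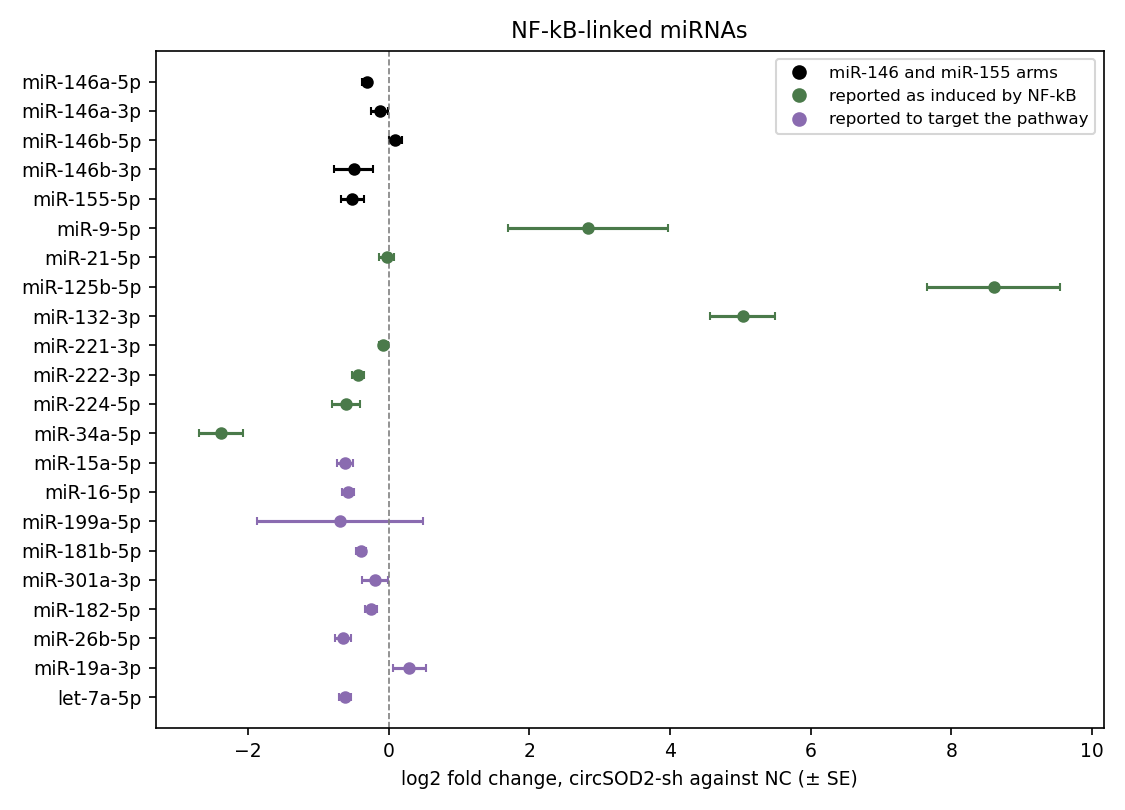
Log2 fold change of circSOD2-sh against NC on TMM scaling (horizontal axis, error bars are SE) of the 5 tested miR-146 and miR-155 arms (black), 8 miRNAs reported as induced by NF-kB (green) and 9 reported to target the pathway (purple). The black points lie between -0.52 and 0.09, whereas the green ones reach from -2.39 to 8.60.

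Because circSOD2 is described as a binder of miRNAs, its sequence was searched for the reverse complement of each member's seed. The circle was taken as exons 5 to 7 of a SOD2 transcript in GENCODE release 29 (462 bases, minus strand of chromosome 6), the only span searched, in which both circSOD2 hairpin targets cross the back-splice junction. The 7-base complements sought were AGTTCTC for the 5p arms of miR-146a and miR-146b, TTCAGAG for miR-146a-3p, CACAGGG for miR-146b-3p, AGCATTA for miR-155-5p and TGTAGGA for miR-155-3p, on the strand of the circle and across its junction, and 0 of the 6 arms had a match. Over the 1298 known miRNAs with a sequence 3.31% had at least 1 match. No match says only that these letters are not in this circle.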

How the data were processed

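Per the labels and the study's methods, small RNA libraries were made by ligating adapters to both RNA ends and sequenced on an Illumina platform. The authors deposited the count of reads per mature miRNA without normalization, the same values as CPM over a library total larger than the listed counts, and their own comparison of the groups (means, fold changes, p-values), which was not used. The submitters' processing notes name FastQC 0.11.2, Trimmomatic 0.36, Bowtie 1.1.1 and GRCh38; how reads were counted is not given in the sources used here. Columns were matched to samples by name.

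The edgeR package (4.0.16) under R 4.3.3 was fitted to the counts of all 3112 miRNAs (filterByExpr with a minimum count of 10, TMM, quasi-likelihood test, prior count 0.125, Benjamini-Hochberg adjustment, threshold 0.05), and normalized CPM was computed from the TMM factors. The SE of a fold change was its size divided by the square root of F. Arm ratios were fitted with limma 3.58.1 over hairpins with both arms tested, and ratios between members by exact permutation. Alternatives used DESeq2 1.42.0, other scalings and filters, limma on log2 CPM with 1 or 0.1 added, the replicate number as a block, and libraries left out; library totals without the most counted predicted miRNA were added after the data were seen. The members, lists and tests were chosen with earlier results of these data known. Named miRNAs are the 6 members, the NF-kB and marker lists, the 3 most like miR-146a-5p and miR-155-5p, and those ranked next to each 5p arm. On simulated data with 200 miRNAs changed by 2 on the log2 scale, edgeR recovered 99.5% of the 185 that passed its filter. It called 0.739% of 677 unchanged ones. On the same simulated data limma recovered 94.7% of 38 arm ratios and called 0% of 74 unchanged ones. Recovery of smaller changes, such as those of miR-146a-5p (-0.31) and miR-155-5p (-0.52), was not tested. Most miRNAs in the simulated data were unchanged, whereas 65.7% of those tested in the real libraries were called. How often edgeR calls an unchanged miRNA in data of that kind was not tested. Within groups no 2 libraries agreed within sampling noise. Tables used Python 3.11.15, pandas 2.3.3 and scipy 1.17.1, and figures matplotlib 3.10.9. Intervals of counts cover counting error only.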

Additional observations from a re-analysis of the deposited data

Results flagged for a closer look

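Of 32 groups of 4 libraries examined, 9 held a library far from the other 3 by Dixon's test at 95%, in which chance alone would set apart about 5% of groups. None was a member's level, and all were summed levels of cell type marker lists, in normalized CPM. NC replicate 4 stood apart 5 times, with 17.1 for leukocytes (1.19 to 2.0 in the other NC libraries), 113.9 for erythroid cells (8.19 to 23.8), 557.4 for stroma and smooth muscle (7.39 to 8.70), 650.7 for endothelium (334.4 to 348.4) and 1065 for kidney tubule (375.6 to 399.4). circSOD2-sh replicate 2 stood apart 4 times, with 14.65 for leukocytes (2.13 to 3.21 in the other circSOD2-sh libraries), 4069 for neural cells (27.0 to 33.3), 227.8 for stroma and smooth muscle (8.00 to 13.4) and 511.5 for endothelium (262.1 to 290.3). Their part in the levels of the miR-146 and miR-155 arms was not tested beyond leaving these libraries out. Without both, miR-146a-5p was at -0.44 and miR-155-5p at -0.72 on the log2 scale, beside a median of -0.13 for all miRNAs tested.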

How the results depend on the processing

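Scaling decided the sign. With upper quartile factors the log2 fold changes of miR-146a-5p, miR-146a-3p, miR-146b-5p, miR-146b-3p and miR-155-5p were 0.53, 0.715, 0.935, 0.339 and 0.314, with library totals 0.652, 0.837, 1.058, 0.457 and 0.446, with limma on deposited CPM plus 1 0.51, 0.673, 0.912, 0.212 and 0.276, and with CPM plus 0.1 0.51, 0.689, 0.913, 0.276 and 0.299. With totals that left out the most counted predicted miRNA, chosen after seeing the data, miR-146a-5p was -0.568 and miR-155-5p -0.772, miR-146a-3p (-0.385, adjusted p = 0.0138 in edgeR) and miR-146b-3p (-0.755, 0.0274) gained a call, so 4 arms were lower, and miR-146b-5p was -0.162. Without NC replicate 4 and circSOD2-sh replicate 2 miR-146b-5p was at -0.07, beside a median of -0.13 for all miRNAs tested. The arm ratio of miR-146b lost its call without these libraries (0.477, adjusted p = 0.171 in limma), as it did with 0.1 counts added (0.625, 0.0509). miR-155-5p lost its call without a filter (-0.549). The number of calls was 246 with known miRNAs only (463 tested), 361 with a mean of at least 50 counts (502 tested), and the split was 570 higher and 160 lower with upper quartile, 561 and 163 with CPM plus 1, and 238 and 377 with totals without the predicted miRNA. Hairpins called were 42 where both arms had a mean of at least 50 counts (67 tested). The causes of the lost and gained calls were not tested.

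Leaving out each library in turn gave 537 to 661 calls, log2 fold changes of -0.499 to -0.337 for miR-146a-5p, -0.308 to -0.133 for miR-146a-3p, -0.091 to 0.072 for miR-146b-5p (-0.071 without circSOD2-sh replicate 2, -0.091 without replicate 3), -0.913 to -0.475 for miR-146b-3p and -0.738 to -0.534 for miR-155-5p, 62 to 70 hairpins, arm ratios of -0.232 to -0.127 for miR-146a and 0.501 to 0.799 for miR-146b, and ratios to miR-146a-5p of 0.363 to 0.426 for miR-146b-5p and -0.297 to -0.127 for miR-155-5p. miR-146a-5p and miR-155-5p passed the test in 8 of 8. With all 8 libraries miR-146a-5p (-0.313), miR-146a-3p (-0.128), miR-146b-5p (0.095) and miR-155-5p (-0.52) lay above these ranges. The median of all miRNAs tested moved as well, between -0.145 without circSOD2-sh replicate 2 and 0.067 without NC replicate 4.

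Replicates with the same number correlated at 0.26, -0.0994, 0.0964 and -0.174, within the range of those with different numbers, -0.241 to 0.264. These values gave no sign that the numbers pair the samples. They cannot exclude it, since NC replicate 4 and circSOD2-sh replicate 2 stood apart from their groups. With the replicate block miR-155-5p was at -0.524 (adjusted p = 0.0529 in edgeR), 574 miRNAs were called, and no other call of a member changed. Depth limits miR-146b-3p and miR-155-3p.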
